A study of Mus musculus with 2 samples.

Results

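The ubiquitin-specific proteases (USPs) were taken as every gene symbol made of Usp, a number and at most 1 further letter. This rule gave 50 members among the 30052 symbols listed in the 2 libraries, and all 50 were listed in both. The symbols Usp17lc, Usp17le, Usp46os1, Usp46os2, Usp6nl and Uspl1 fell outside the rule, as did Cyld, a USP-family gene with another name. The members lie on 17 chromosomes, 44 of them on autosomes, 5 on X and 1 on Y. All are annotated as protein coding in GENCODE M21 on GRCm38.

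Poly(A) RNA of dissociated testis cells was counted per droplet barcode in 1 library from testis of adult wild-type (WT) mice and 1 library from testis of adult Nsun7 knockout mice. The sources used here do not give the strain, the way the knockout was made or the number of animals behind each library. Nsun7 itself was lower in the knockout library in each of the 3 later germ classes: 220.1 (WT) against 51.2 CPM (counts per 1000000 counts of a class) in late spermatocytes, 199.8 against 37.6 CPM in round and 158.5 against 43.6 CPM in elongating spermatids. With 1 library per genotype no difference between the genotypes has a replicate check, no test was made, and every interval below is a 95% interval of counting error only.

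Ubiquitin is a small protein that is joined to other proteins to mark them for degradation, sorting or a change of activity. USPs are cysteine proteases that cut it off again, and they form the largest family of deubiquitinases. Male germ cells rely on this exchange at several points: in the repair of meiotic DNA breaks, in silencing of the X and Y chromosomes during the pachytene stage, in the ubiquitination of histones before they are replaced by protamines, and in building the acrosome from Golgi and endosomal vesicles.

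After a filter on genes and mitochondrial counts, 15139 WT and 13869 knockout cells remained, with medians of 8723 and 12020 unique molecular identifiers (UMIs). Cells were clustered without the USP genes, and clusters were named from marker genes, so every class name below means cells like that type. The germ classes held, in WT and knockout, 1233 and 503 spermatogonia, 884 and 388 early spermatocytes, 3828 and 1234 late spermatocytes, 1330 and 815 round spermatids, and 5068 and 8593 elongating spermatids. Median depth also differed by library, with 12186 and 4079.5 UMIs in late spermatocytes and 11725.5 and 14976 UMIs in elongating spermatids. The elongating class was held mainly by clusters 2, 4 and 3 in WT and by clusters 1, 0 and 5 in the knockout library. Clusters with none of their class's markers among the 10 leading genes were 24 (spermatogonia), 11 (late spermatocytes), 18 and 22 (round spermatids), and 4, 12 and 17 (elongating spermatids). Levels are CPM of the counts summed over a class and are not scaled by gene length, and the deposited counts were taken as UMIs, each standing for a molecule. Beside them stands free RNA: genes of Leydig cells (Insl3, Cyp17a1, Cyp11a1 and Star) reached in late spermatocytes 6.50% of their library-wide level (WT) against 5.87% (knockout), and in elongating spermatids 7.19% and 5.44%.

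Regions before the start of 38 of the 50 members were matched by symbol in RefSeq's GRCm38.p6 promoter table. Shown here are the 250 bases before the start of 4 members that stand for different germ cell classes in the results: Usp26 (spermatogonia), Usp2 (round spermatids), and Usp12 and Usp50 (elongating spermatids). They read 5′ to 3′ on the gene's strand, with CG dinucleotides in capitals. They lie at chrX:51801234-51801483 on the minus strand for Usp26, chr9:44084670-44084919 on the plus strand for Usp2, chr5:146794957-146795206 on the minus strand for Usp12 and chr2:126783461-126783710 on the minus strand for Usp50. The Usp2 entry begins within the annotated gene (chr9:44067021-44095627), so a start further upstream is not shown. The windows of Usp12 and Usp50 also reach into the annotated genes, which start on the minus strand at chr5:146795006 and chr2:126783470.
Usp26: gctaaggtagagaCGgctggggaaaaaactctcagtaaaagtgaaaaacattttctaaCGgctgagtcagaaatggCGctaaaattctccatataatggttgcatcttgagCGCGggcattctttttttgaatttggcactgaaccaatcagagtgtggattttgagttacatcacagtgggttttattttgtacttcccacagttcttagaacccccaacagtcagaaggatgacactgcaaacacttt
Usp2: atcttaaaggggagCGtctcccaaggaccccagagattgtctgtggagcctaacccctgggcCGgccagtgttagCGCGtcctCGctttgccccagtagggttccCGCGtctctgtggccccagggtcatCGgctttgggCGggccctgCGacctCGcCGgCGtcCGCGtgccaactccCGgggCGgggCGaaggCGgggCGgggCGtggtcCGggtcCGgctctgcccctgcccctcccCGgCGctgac
Usp12: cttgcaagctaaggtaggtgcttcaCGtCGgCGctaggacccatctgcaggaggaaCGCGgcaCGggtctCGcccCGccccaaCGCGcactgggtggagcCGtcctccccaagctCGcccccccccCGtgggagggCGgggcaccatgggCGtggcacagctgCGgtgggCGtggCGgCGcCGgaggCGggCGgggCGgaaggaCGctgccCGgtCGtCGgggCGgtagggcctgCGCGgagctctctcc
Usp50: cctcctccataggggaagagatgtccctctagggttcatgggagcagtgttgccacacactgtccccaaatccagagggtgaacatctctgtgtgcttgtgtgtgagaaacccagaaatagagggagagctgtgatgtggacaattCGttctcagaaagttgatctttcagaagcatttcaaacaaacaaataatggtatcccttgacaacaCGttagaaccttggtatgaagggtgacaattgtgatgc
The windows of Usp2 and Usp12 held 25 and 30 CG dinucleotides at 71.6% and 74.8% G and C, while those of Usp26 and Usp50 held 5 and 2 at 41.2% and 46.0%. The median over 27025 genes was 6 CG dinucleotides and 52% G and C.

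Short motifs were searched on both strands of the same windows, and a match is a description of the letters only. The GC box GGGCGG was in 25 of 38 member windows (65.8%), against 32.9% of all windows. The MYB-type motif TAACNG was in 9 of 38, among them Usp26, against 19.8% of all. TGACGT, part of the cAMP response element, was in 4 of 38 (Usp38, Usp36, Usp54 and Usp11) against 6.56% of all, and the full TGACGTCA, which contains it, was in 0 of 38 against 1.62%. The X-box core GTTGCC was in 5 of 38, among them Usp50, against 10.5% and TATAAA in 2 of 38 against 13%.

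The first question was at which stage each member is most abundant. A member was placed in the germ class where its WT level was highest if it reached 10 CPM there. This held for 43 of the 50 members, and the other 7 are given below. Spermatogonia held the peak of 11 members, against 28.5% of all 13266 genes that reached the same minimum, and early spermatocytes that of 14 members, against 21.1%. Late spermatocytes held 8 (22.1% of all genes), round spermatids 7 (18.3%) and elongating spermatids 3 (9.94%). As shares of 43, the members' counts are 25.6%, 32.6%, 18.6%, 16.3% and 6.98%. In the knockout library 42 of the 43 members peaked in the same class, and the exception was Usp10, a deubiquitinase that binds the stress granule protein G3bp1. The share of all genes with the same peak class in both libraries was not counted, so this count describes the members only. Usp10 was at 14.0 CPM in WT spermatogonia and 22.6 CPM in WT early spermatocytes, and at 20.5 and 17.7 CPM in the knockout library, where the 2 intervals overlapped.

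**Figure D1:**
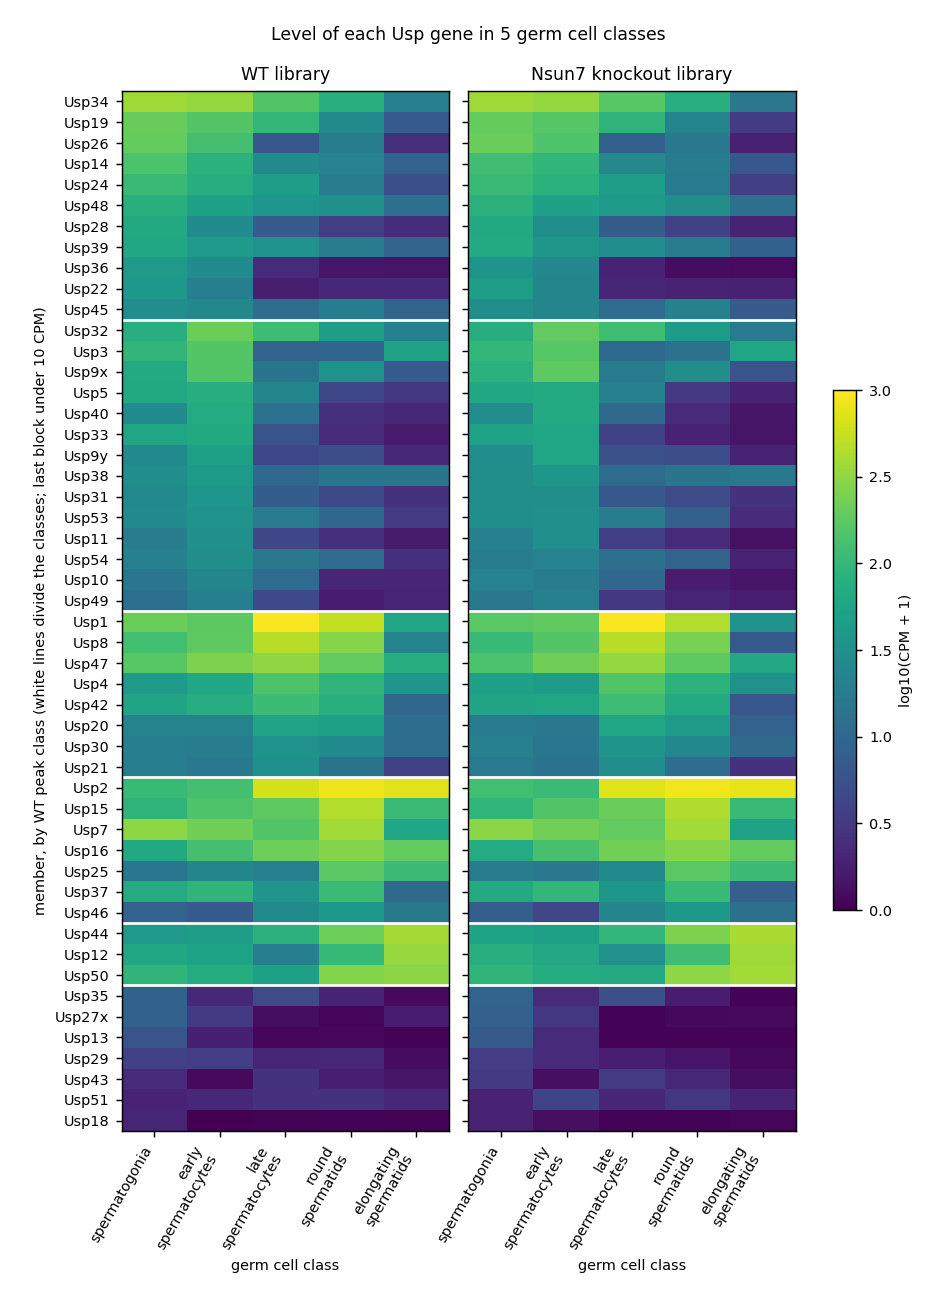
Each row is a Usp gene and each column a germ cell class, for the WT library (left) and the Nsun7 knockout library (right); colour gives log10(CPM + 1). Rows are grouped by the class of the WT peak, with the 7 members under 10 CPM at the bottom, and the 2 panels show the same order of bright cells, with 42 of 43 members peaking in the same class. The matching share of all genes was not counted.

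Spermatogonia had the large signalling deubiquitinase Usp34 as their most abundant member. It acts on axin in Wnt signalling, and was at 370.7 CPM in WT spermatogonia and 371.6 CPM in knockout spermatogonia. Its level was lower at each later class, at 338 and 334 CPM in early spermatocytes, 153 and 167 CPM in late spermatocytes, 80.03 and 74.5 CPM in round spermatids, and 19.1 and 14.5 CPM in elongating spermatids. Usp34 shares 2137 annotated exon bases with Ahsa2 on the opposite strand, and the sources used here do not say whether strand was used in counting. Usp19, a protease anchored in the endoplasmic reticulum, followed the same order from 201.5 CPM in WT spermatogonia to 6.44 CPM in elongating spermatids. Usp14, which works on the proteasome, went from 139.1 to 7.70 CPM, and shares 2169 exon bases with Thoc1. Usp24, Usp48, Usp28, Usp39, Usp36, Usp22 and the X-linked Usp26 also peaked here, with Usp45 the lowest at 28.7 CPM. Usp22, the protease of the SAGA histone deubiquitinase module, was at 39.2 CPM in WT spermatogonia, 18.9 CPM in early spermatocytes and 0.792 CPM in late spermatocytes. Its module partners stood beside it: Atxn7l3 was at 31.6, 17.7 and 16.5 CPM in these 3 classes, and Eny2 at 156.1, 181.5 and 31.8 CPM.

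Early spermatocytes held the peak of 14 members, from 18.5 CPM (Usp49) to 213.2 CPM (Usp32, a Golgi and endosome protease). Usp3, which removes ubiquitin from histone H2A, was low in 2 classes and higher again in the next. In WT, Usp3 was at 158.4 CPM in early spermatocytes, 7.93 CPM in late spermatocytes, 8.33 CPM in round spermatids and 53.2 CPM in elongating spermatids, and in the knockout library at 165.4, 9.47, 12.6 and 56.3 CPM. The fold from WT round to elongating spermatids was 6.39 (5.57 to 7.36). Not higher again were Usp33, an endoplasmic reticulum and Golgi protease, from 64.8 CPM in WT early spermatocytes to 5.08 CPM in late spermatocytes, and Usp5, which takes apart free ubiquitin chains, from 73.5 to 22.8 CPM. Usp40 went from 69.6 to 12.4 CPM, and Usp31 from 37.04 to 6.64 CPM. Usp38, Usp53, Usp54, Usp49 and Usp10 also peaked here, with WT levels of 18.5 to 42.6 CPM, as did the sex-linked Usp9x, Usp9y and Usp11.

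Usp1 was the most abundant member of late spermatocytes. It removes ubiquitin from PCNA and from the Fanconi anaemia protein FANCD2, with the partner Wdr48. Its WT levels along the 5 germ classes were 212.8, 174.5, 937, 525.0 and 58.6 CPM, and its knockout levels 169.8, 183.4, 929, 445 and 32.6 CPM. From WT early to late spermatocytes the level was 5.37 times higher (5.02 to 5.75), and from round to elongating spermatids it was 8.96 times lower (8.65 to 9.27). Wdr48 was also highest in late spermatocytes, at 154.7 CPM in WT early spermatocytes, 545.9 CPM in late spermatocytes, 251.8 CPM in round spermatids and 78.0 CPM in elongating spermatids. In the clusters of WT late spermatocytes Usp1 ranged from 749 CPM in cluster 7 to 1088 CPM in cluster 8.

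Usp8, which sorts receptors at endosomes together with Hgs and Stam and has been placed at the forming acrosome, followed. It was at 121.8, 179.2, 472, 286.8 and 20.7 CPM in the 5 WT classes and at 103.4, 156.5, 473, 249.6 and 6.14 CPM in the knockout library. Of its endosomal partners, Hgs was also highest in late spermatocytes, at 127.4 CPM in WT and with 120.5 CPM in WT round spermatids, while Stam was highest in early spermatocytes at 36.0 CPM. Usp47, which acts on DNA polymerase beta, was at 319 CPM in WT late and 331 CPM in knockout late spermatocytes. Usp4, Usp42, Usp20, Usp30 and Usp21 peaked in the same class, at WT levels of 30.9 to 143.6 CPM.

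Usp2 was the most abundant member of both spermatid classes. It is a cyclin D1 deubiquitinase, and male mice without it have poor fertility. WT levels were 108.3, 129.2, 631.9, 835 and 724.9 CPM along the 5 classes, and knockout levels 123.5, 110.8, 711.9, 872 and 778 CPM. When every cell was thinned to 1000 UMIs, 58.5% of WT round spermatids held a Usp2 UMI (55.8% to 61.2%) and 62.0% of knockout ones (58.5% to 65.3%). The same shares in Leydig cells, a somatic type, were 9.17% and 8.65%. Without thinning they were 96.8% and 93.9% of round spermatids, at median depths of 12714.5 and 8013 UMIs, and 42.4% and 49.5% of Leydig cells, at 10100 and 13633 UMIs. Within the WT elongating class Usp2 ranged from 346 CPM in cluster 2 to 1022 CPM in cluster 12.

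Usp15, a deubiquitinase of TGF-beta signalling and the spliceosome, was at 178.4 CPM in WT late spermatocytes, 449.8 CPM in round spermatids and 109.3 CPM in elongating spermatids, and at 207.3, 437.3 and 106.4 CPM in the knockout library. Usp7, the protease of Mdm2 and p53, had 2 maxima, with 309.5 CPM in WT spermatogonia, 151.3 CPM in late spermatocytes and 386.4 CPM in round spermatids. The knockout library gave 296.5, 188.3 and 382.9 CPM for Usp7 in the same classes. Its partner Gmps peaked earlier, at 584.5 CPM in WT late spermatocytes against 411.4 CPM in WT round spermatids.

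Usp25, which acts in immune and Wnt signalling, had a step at the end of meiosis, from 19.2 to 169.0 CPM in WT, an 8.79-fold difference (8.29 to 9.32), and from 25.6 to 169.9 CPM in the knockout library. Usp16, a histone H2A deubiquitinase, stayed between 190.0 and 278.6 CPM in the 3 later WT classes. Usp37, a cell cycle deubiquitinase, was at 91.4 CPM in WT early spermatocytes, 35.3 CPM in late spermatocytes and 109.9 CPM in round spermatids. Usp46 was the least abundant of this group, at 38.4 CPM in WT round spermatids.

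Usp12, Usp44 and Usp50 were the members with their highest level in elongating spermatids. Usp12 works with Wdr48 and Wdr20, Usp44 is known from the spindle checkpoint and histone H2B, and Usp50 is thought to lack protease activity. Usp44 (chr10:93831555-93858088) was at 39.3, 45.5, 82.6, 215.3 and 395.9 CPM along the WT classes and at 53.6, 49.8, 96.2, 256.7 and 419.8 CPM in the knockout library, so it was higher at each class from early spermatocytes on. Usp12 was lowest in late spermatocytes, with WT levels of 60.4, 54.5, 18.2, 101.5 and 343.9 CPM. Usp50 was at 89.9, 70.6, 51.6, 274.7 and 300.7 CPM in WT, and its first large step was 5.32-fold (5.12 to 5.53) from late spermatocytes to round spermatids. Its WT level in elongating spermatids was only 1.09 times that in round ones. In the WT clusters of elongating spermatids Usp50 separated from the others: clusters 0 and 2 held 68.6 and 89.3 CPM of Usp50 but 302.5 and 385.3 CPM of Usp12 and 374.4 and 436.2 CPM of Usp44.

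**Figure D2:**
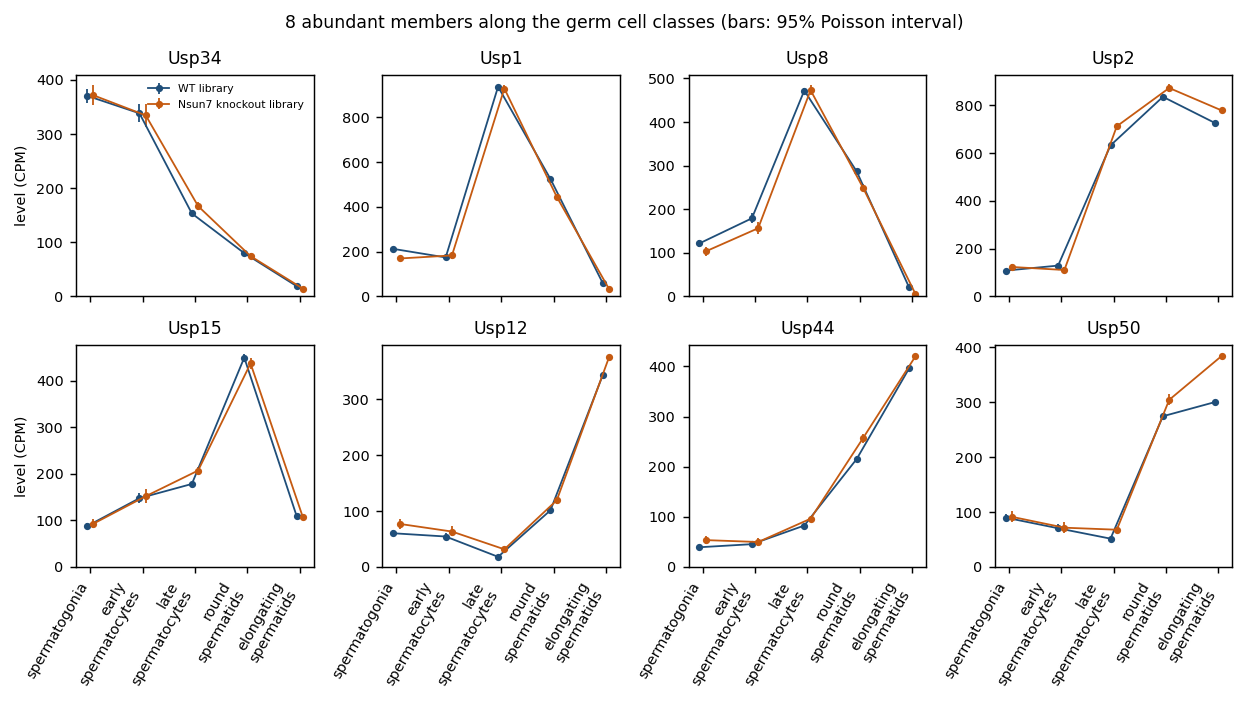
Level in CPM of 8 abundant members in the 5 germ cell classes of the WT library (blue) and the Nsun7 knockout library (orange), with bars for the 95% Poisson interval. Usp34 descends from spermatogonia, Usp1 and Usp8 are highest in late spermatocytes, Usp2 and Usp15 in round spermatids, and Usp12, Usp44 and Usp50 in elongating spermatids.

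Closely related members were set side by side. In WT round spermatids Usp25 was at 169.0 CPM and Usp28 at 2.54 CPM, while in WT spermatogonia they were at 14.0 and 65.6 CPM. Usp44 and Usp49, which both act on histone H2B, were at 395.9 and 1.02 CPM in WT elongating spermatids. Usp49 shares 4392 annotated exon bases with Gm20517 on the same strand, and the sources used here do not say how reads from such bases were counted. Usp12 and Usp46, which share their WD-repeat partners, peaked in different spermatid classes, and Usp12 was at 343.9 CPM against 15.0 CPM for Usp46 in WT elongating spermatids. In each of these pairs 1 member thus gave most of the counts at that stage, as far as counts not scaled by length compare genes. For Usp49 the counts may also miss reads from the shared bases.

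Further pairs ranged from near equal to very unequal levels. Usp16 was at 278.6 CPM and Usp45 at 17.6 CPM in WT round spermatids, Usp2 at 835 CPM and Usp21 at 13.3 CPM, and Usp8 at 286.8 CPM and Usp50 at 274.7 CPM. In WT early spermatocytes Usp20 was at 21.2 CPM and Usp33 at 64.8 CPM, and in late spermatocytes at 55.3 and 5.08 CPM. In WT late spermatocytes Usp42 was at 114.2 CPM and Usp36 at 1.26 CPM. In WT spermatogonia Usp5 was at 64.6 CPM and Usp13 at 5.05 CPM, Usp38 at 28.5 CPM and Usp35 at 7.63 CPM, Usp31 at 25.6 CPM and Usp43 at 1.29 CPM, and Usp53 at 26.7 CPM and Usp54 at 19.1 CPM. Usp26, Usp37 and Usp29, an X-linked and 2 autosomal relatives, were at 193.9, 68.5 and 2.82 CPM there. Usp8 (chr2:126707328-126759297, plus strand) and Usp50 (chr2:126709096-126783470, minus strand) overlap as genes but share no annotated exon bases, so reads from introns of either could bear on both if they were counted.

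The steps between successive classes were counted at 2-fold, with 5 CPM added to both levels, over genes whose mean over both classes reached 10 CPM. From spermatogonia to early spermatocytes 3 of 42 members (Usp9x, Usp32 and Usp40) were higher in WT and 1 (Usp28) was lower, against 7.18% and 9.42% of all genes. The knockout library gave the same 3 and 1 of 42 (7.32% and 7.55% of all genes). From early to late spermatocytes 17 of 42 members were lower and 6 higher in WT, against 36.8% and 25.4% of all genes. The 6 were Usp1, Usp2, Usp4, Usp8, Usp20 and Usp46. In the knockout library 16 of 43 were lower and 7 higher (37.6% and 27.3% of all genes), and 15 of the lower and 6 of the higher members were shared with WT. From late spermatocytes to round spermatids 9 of 32 were higher and 4 lower in WT (26.2% and 24.5% of all genes), and in the knockout library 7 were higher and 7 lower of 33 (25.2% and 25.3%). From round to elongating spermatids 17 of 28 were lower and 2, Usp3 and Usp12, higher in WT (54.9% and 8.82%). The knockout library gave 17 lower and the same 2 higher of 27 (55.6% and 8.23%). How many of all genes made the same step in both libraries was not counted. No step was tested, since genes are not replicates.

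The sex-linked members are the subject of the next comparison, since X and Y genes are silenced in pachytene spermatocytes. Usp26 (chrX:51753959-51801233) is an X-linked testis gene, Usp9x (chrX:13071498-13173328) has the Y-linked copy Usp9y (chrY:1298961-1459782), Usp11 (chrX:20703906-20720539) takes part in DNA repair, and Usp27x and Usp51 are relatives of Usp22. Usp26 was at 193.9, 129.4, 5.58, 17.3 and 1.54 CPM along the WT classes and at 205.8, 146.6, 7.24, 14.8 and 0.894 CPM in the knockout library. Usp9x was at 67.2, 156.4, 13.6, 33.1 and 6.16 CPM in WT and at 81.9, 178.0, 16.0, 29.7 and 5.07 CPM in the knockout library. Both were thus low in late spermatocytes and higher again in round spermatids, where they stayed below their level in early spermatocytes.

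From early to late spermatocytes Usp26 was lower by 23.2-fold (20.5 to 26.3) in WT and 20.3-fold (16.2 to 25.6) in the knockout library. Usp9x was 11.5-fold (10.5 to 12.7) and 11.1-fold (9.45 to 13.1) lower, Usp11 9.17-fold and 11.9-fold, and Usp9y 14.5-fold and 12.4-fold. Of the X-linked genes at the minimum, at this step 83.4% of 271 (WT) against 77.7% of 296 (knockout) were at least 2-fold lower, while for autosomal genes the shares were 35.5% and 36.4%. From late spermatocytes to round spermatids Usp26 was 3.09-fold higher (2.71 to 3.54) in WT and 2.04-fold (1.58 to 2.65) in the knockout library. Usp9x was 2.44-fold (2.23 to 2.67) and 1.85-fold (1.56 to 2.21) higher, while Usp11 was 2.16-fold (1.55 to 3.08) and 1.99-fold (1.07 to 3.87) lower, and for Usp9y the intervals of both folds held 1. At this second step 86.5% of X-linked genes were at least 2-fold higher in WT and 76.4% in the knockout library. For autosomal genes the shares were 24.8% and 23.9%.

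**Figure D3:**
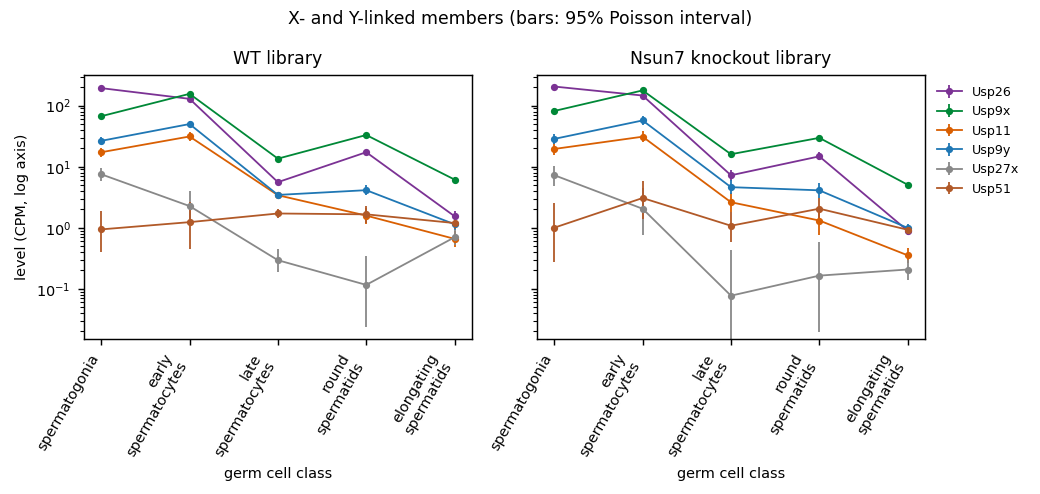
Level in CPM on a log axis of the 5 X-linked members and the Y-linked Usp9y in the 5 germ cell classes of each library, with bars for the 95% Poisson interval. Usp26, Usp9x, Usp9y and Usp11 stand 9.17 to 23.2 times lower in WT late than in WT early spermatocytes, and Usp26 and Usp9x are higher again in round spermatids.

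Within WT late spermatocytes the levels differed between clusters. Usp26 was at 0.736 CPM in cluster 7, 2.60 CPM in cluster 9, 4.03 CPM in cluster 8 and 15.0 CPM in cluster 11, and Usp9x at 2.45, 10.8, 18.1 and 29.0 CPM in the same clusters. Cluster 7 was thus the lowest and cluster 11 the highest for both. In thinned cells 17.4% of WT spermatogonia (15.4% to 19.7%) and 19.3% of knockout ones (15.9% to 23.0%) held a Usp26 UMI, against 0.573% and 0.270% of Leydig cells. Without thinning the spermatogonia gave 54.0% and 57.1% at median depths of 4564 and 5523 UMIs, and Leydig cells 1.43% and 1.35%. Usp27x was at 7.52 CPM in WT spermatogonia and at most 2.26 CPM in the later germ classes, but at 28.0 CPM in WT Sertoli cells. Usp51 lay between 0.939 and 1.71 CPM in every WT germ class. The ubiquitin-activating enzymes encoded on the sex chromosomes had a similar low point, as Uba1 was at 80.9 CPM and Uba1y at 88.3 CPM in WT early spermatocytes and at 7.45 and 3.58 CPM in late spermatocytes.

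The 7 members under 10 CPM in every WT germ class were Usp13, Usp18, Usp27x, Usp29, Usp35, Usp43 and Usp51, with highest germ class levels of 1.06 CPM (Usp18) to 7.63 CPM (Usp35). Usp18, which removes the ubiquitin-like protein Isg15, and Usp13, a relative of Usp5, gave 109 and 111 counts over the kept cells of both libraries. No member had fewer than 100 counts, so none was absent. Isg15 itself was at 1.06 CPM or less in the WT germ classes.

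The next comparison was between genotypes, for members whose mean over both libraries reached 10 CPM in a class. In spermatogonia 0 of 42 members were at least 1.5 times lower or higher in the knockout library (2.66% and 1.66% of all genes), and the same was found in early spermatocytes, with 0 of 42 each way (5.42% and 1.56%). In late spermatocytes 0 of 31 were lower and 1 was higher (0.369% and 3.51% of all genes). In round spermatids 0 of 30 members passed in either direction (0.346% and 0.532%). In elongating spermatids 2 of 19 were lower and 0 higher (7.47% and 0.0209%). The median log2 ratio of knockout over WT was 0.04 over the members and -0.03 over all genes in late spermatocytes. It was -0.06 against -0.07 for round spermatids and -0.04 against -0.07 for elongating ones. After trimmed-mean scaling, whose factor was -0.34 in elongating and -0.10 in round spermatids, the members' medians were 0.24 and 0.03 in these 2 classes, so their sign depended on the scaling.

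The member higher in late spermatocytes was Usp12, at 18.2 CPM (1426 counts) in WT against 31.6 CPM in knockout cells (411 counts), a log2 ratio of 0.66 and a raw fold of 1.74 (1.55 to 1.94). It was higher in 4 of 4 clusters of the class, with intervals apart in 2. Its log2 ratio was 0.55 with the same mix of clusters in both libraries and 0.51 after an estimate of free RNA was subtracted, both under the 1.5-fold line. The free RNA estimate for Usp12 was 9.81 CPM for WT against 17.5 CPM for the knockout. Next came Usp50, at 51.6 and 67.9 CPM (log2 ratio 0.36), and Usp25, at 19.2 and 25.6 CPM (0.34). With the same cluster mix Usp50 was at 0.18 and Usp25 at 0.13. Usp54, Usp40 and Usp5 were the lowest, at -0.24, -0.23 and -0.21. Of the 12 markers of elongating spermatids, such as the protamine and transition protein genes, 12 were higher in knockout late spermatocytes and none was at 0. Their summed level was 7652 CPM (WT) against 14121 CPM (knockout), and their part in these differences was not tested.

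In round spermatids all 30 members lay between log2 ratios of -0.27 and 0.40. The highest was Usp3, at 8.33 CPM in WT against 12.6 CPM in knockout cells, a log2 ratio of 0.40, followed by Usp44 (0.25) and Usp12 (0.22). With only the cluster led by a marker of the class, Usp3 was at 0.08, below Usp12 (0.30) and Usp44 (0.25). The lowest were Usp19 (-0.27), Usp1 (-0.24) and Usp42 (-0.22). Usp1 was at 525.0 and 445 CPM there and lower in 3 of 3 clusters with intervals apart in each. In this class 12 of 12 elongating spermatid markers were higher in the knockout library (summed 32089 against 46300.3 CPM) and 0 of 10 late spermatocyte markers were (2403 against 2111 CPM), and their part was not tested.

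In elongating spermatids Usp8 and Usp1 were the members past the 1.5-fold line. Usp8 stood at 20.7 CPM (WT) against 6.14 CPM (knockout), a log2 ratio of -1.21, and Usp1 at 58.6 and 32.6 CPM, a log2 ratio of -0.76. Both are at their peak 2 classes earlier, and both were lower in 8 of 9 clusters present in both libraries, with intervals apart in 6. The exception was cluster 2, with 1715 WT and 74 knockout cells, where Usp8 was at 21.3 and 21.8 CPM and Usp1 at 68.7 and 86.0 CPM. Other clusters were as uneven: 17, 5 and 1 held 31, 42 and 60 WT cells against 803, 1592 and 1811 knockout cells. The 10 markers of late spermatocytes moved with both results, at a summed 446.5 CPM (WT) against 265.9 CPM (knockout) in elongating spermatids, with 0 of 10 higher in the knockout library and none at 0. They were not alone in this. Markers of spermatogonia summed to 117.3 and 64.1 CPM (2 of 10 higher) and of early spermatocytes to 111.6 and 69.3 CPM (0 of 11). Those of round spermatids summed to 652.6 and 579.3 CPM (4 of 12), and only those of elongating spermatids summed higher (224128 and 245975 CPM, 5 of 12). The part of these markers in the results was not tested. The free RNA estimate for Usp8 was 17.2 of 20.7 CPM (WT) against 3.69 of 6.14 CPM (knockout), and for Usp1 33.3 of 58.6 CPM and 7.41 of 32.6 CPM. After that subtraction the log2 ratios were -0.20 for Usp8 and -0.01 for Usp1. Usp34 was the third lowest, at 19.1 and 14.5 CPM, a log2 ratio of -0.31 as counted and 0.03 after the subtraction.

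Higher in knockout elongating spermatids, though under 1.5-fold, was Usp50, at 300.7 CPM in WT against 384.5 CPM in knockout cells, a fold of 1.28 (1.26 to 1.30). It was higher in 9 of 9 clusters, with intervals apart in 6. Usp12 was at 343.9 and 376.1 CPM and Usp2 at 724.9 and 778 CPM. Usp12 was also higher in 9 of 9 clusters, with intervals apart in 4. Some of these clusters held few cells of 1 library, as given above. With trimmed-mean scaling Usp50 had a log2 ratio of 0.68 and passed the 1.5-fold line. It also passed, at 0.71, when only clusters with a marker of the class among their 10 leading genes were used. With the same mix of clusters in both libraries it was lower, at 0.26, against 0.35 as counted. After free RNA was subtracted it was 0.34.

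**Figure D4:**
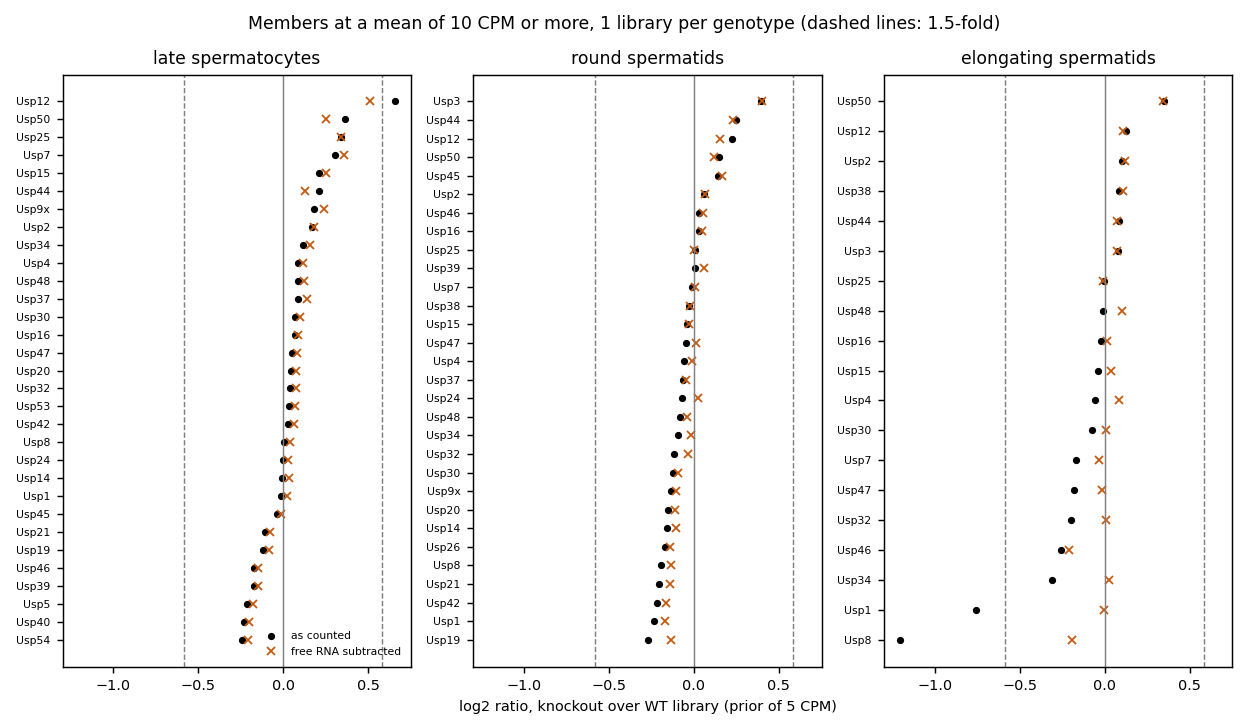
Log2 ratio of knockout over WT level, with 5 CPM added to both, for each member whose mean level reached 10 CPM, in 3 germ cell classes; dots are values as counted, crosses are values after subtraction of the free RNA estimate, and dashed lines mark 1.5-fold. Usp12 in late spermatocytes and Usp1 and Usp8 in elongating spermatids are the dots outside the lines, and no cross lies outside them.

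**Figure D5:**
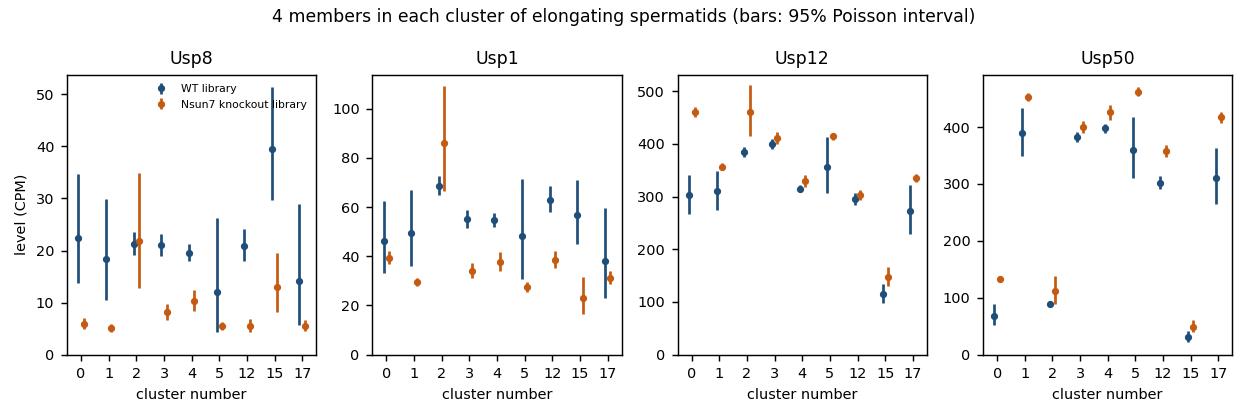
Level in CPM of Usp8, Usp1, Usp12 and Usp50 in each of the 9 clusters of elongating spermatids with 20 or more cells in both libraries (WT blue, knockout orange), with bars for the 95% Poisson interval. Usp8 and Usp1 are lower in the knockout library in 8 of 9 clusters, and Usp12 and Usp50 are higher in 9 of 9. Clusters 17, 5 and 1 hold 31, 42 and 60 WT cells, and cluster 2 holds 74 knockout cells.

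Somatic classes were compared where each library had 50 or more cells. In Leydig cells 1 of 36 members, Usp1, was at least 1.5 times lower in the knockout library, at 87.8 and 41.1 CPM, and 0 were higher (6.17% and 0.423% of all genes). The 10 late spermatocyte markers summed to 347.6 CPM (WT) against 101.3 CPM (knockout) in Leydig cells, with 1 of them at 0 in the knockout library. Markers of spermatogonia (232.0 and 142.6 CPM), early spermatocytes (117.9 and 36.6 CPM) and round spermatids (217.4 and 90.7 CPM) also summed lower there. Those of elongating spermatids summed higher (19036 and 23749 CPM). The part of these markers in this difference was not tested. In Sertoli cells 22 of 37 members were lower and 5 higher (48.1% and 11.2% of all genes), with a trimmed-mean factor of -0.60 for this class. The 5 higher members were Usp2, Usp12, Usp25, Usp44 and Usp50, which all peak in a spermatid class in WT: Usp44 was at 112.2 and 257.1 CPM, Usp12 at 106.7 and 233.3 CPM, and Usp2 at 303.4 and 484.3 CPM. Of the other members with a spermatid peak, Usp37 and Usp46 were among the lower, and Usp7, Usp15 and Usp16 passed in neither direction. The 12 elongating spermatid markers were all higher in knockout Sertoli cells, with a summed level of 53199 CPM (WT) against 137848 CPM (knockout), and their part in these differences was not tested. The high-count Sertoli cluster 28 held 114 of 702 WT cells and 19 of 610 knockout cells. In that cluster in WT, Usp19 was at 199.1 CPM, Usp9x at 138.5 CPM, Usp46 at 107.5 CPM and Usp22 at 87.6 CPM, and Usp2 at 95.6 CPM. In macrophages 6 of 34 members were lower and 6 higher (21.8% and 15.6% of all genes), and in the interstitial stroma 6 of 38 were lower and 4 higher (14.3% and 7.13%). These 2 classes had 120 and 121 cells, and 356 and 165 cells. In the stroma Usp1, Usp8, Usp14, Usp45, Usp47 and Usp53 were the lower members and Usp12, Usp40, Usp44 and Usp50 the higher. Of these, Usp14 and Usp45 peak in WT spermatogonia, and Usp40 and Usp53 in WT early spermatocytes. Within the stroma 0 of 10 late spermatocyte markers were higher in the knockout library (760.7 against 296.0 CPM), and 6 of 12 elongating spermatid markers were (64261 against 93141 CPM). In macrophages 2 of 10 (641.1 against 424.4 CPM) and 11 of 12 (25069.8 against 36298 CPM) were higher. The part of these markers was not tested.

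The peak germ class was set against the mean of the 4 somatic classes in WT, with 5 CPM added to both. The members were kept for their germ cell level and the peak is a maximum over 5 classes, so these ratios only describe and order the members. Usp26 stood 29.2-fold higher, at 193.9 against 1.80 CPM, followed by Usp9y at 8.95-fold (50.004 against 1.15 CPM) and Usp1 at 6.10-fold. Usp10 (0.937-fold), Usp46 (1.13-fold) and Usp22 (1.18-fold) were the lowest. Free RNA was not subtracted here, and Usp2, for example, was at 107.4 to 303.4 CPM in the 4 WT somatic classes.

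The summed level of all 50 members in the germ classes was 3410 CPM in WT and 3397 CPM in knockout spermatogonia, 3691 and 3615 CPM in early spermatocytes, 4186 and 4408 CPM in late spermatocytes, 4491 and 4428 CPM in round spermatids, and 2662 and 2752 CPM in elongating spermatids. In somatic classes it was 2901 and 2646 CPM in Sertoli cells, 2142 and 2101 CPM in the interstitial stroma, 1822 and 1866 CPM in macrophages, and 1565 and 1383 CPM in Leydig cells. The 5 most abundant members made up 37.8% of the sum in WT spermatogonia and 73.5% in WT elongating spermatids, where they were Usp2, Usp44, Usp12, Usp50 and Usp16. The number of members at 10 CPM or more went from 42 in WT spermatogonia to 20 in WT elongating spermatids, and from 42 to 17 in the knockout library. Over all genes, those with a mean of at least 10 CPM over both libraries numbered 9821 in spermatogonia and 4777 in elongating spermatids.

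Further gene lists of the ubiquitin system were read beside the members. Of 16 genes for known partners of USPs, 15 reached 10 CPM in a WT germ class and 0 of these peaked in a spermatid class, against 10 of 43 members. Round spermatids held the peak of 16.3% of members and 18.3% of all genes, and elongating spermatids that of 6.98% and 9.94%. In the knockout library 2 of 8 partners at the minimum in elongating spermatids were at least 1.5 times lower, Atxn7l3b (35.4 and 13.6 CPM) and Gmps (47.5 and 22.6 CPM), against 7.47% of all genes, and 0 passed in late or round spermatids. Both peak in late spermatocytes, whose markers were also lower there (446.5 against 265.9 CPM), and the part of these was not tested. Of 37 other deubiquitinases, 35 reached the minimum, with peaks of 8, 8, 11, 5 and 3 along the 5 classes. Otub2 was the most abundant of them in WT elongating spermatids at 1196 CPM (1377 CPM in the knockout library), and it was higher in knockout late spermatocytes, at 64.5 and 117.7 CPM, where the elongating spermatid markers were higher too (7652 against 14121 CPM). Uchl3, which peaks in late spermatocytes, was lower in knockout elongating spermatids, at 18.2 and 5.08 CPM, as were the late spermatocyte markers given above. The part of these markers was not tested. Among 7 ubiquitin and activating enzyme genes, Ubb was highest in WT late spermatocytes at 3255 CPM. Rps27a was at 49.3 and 30.7 CPM in round and at 30.2 and 10.7 CPM in elongating spermatids.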

How the data were processed

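The authors deposited whole-number counts per gene and barcode for 1 WT and 1 Nsun7 knockout testis library, written by PISA 0.12 per the file headers. The build is GRCm38, per the submitters' processing notes. Aligner, annotation, barcode filters and any use of strand or introns: the sources used here do not give them. Libraries were made with the DNBelab C droplet system, per the labels' protocols, and held 220247156 counts in 16376 WT barcodes and 210531446 counts in 16837 knockout barcodes. Of these, 2168 barcode names occur in both, but the names are running numbers.

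The members and lists were chosen with earlier results of these data known. A barcode was kept with at least 200 genes and no more than 20% of counts from mitochondria. Doublets called with Scrublet in scanpy 1.11.5 (611 WT, 631 knockout) were kept. Cells were scaled to 10000 counts, and 3000 variable genes were chosen jointly for both libraries. Without Nsun7 and any members among them, these gave 40 principal components, 20 neighbours and 32 Leiden clusters at resolution 1 (igraph 0.11.9). Clusters were named by their best marker score over classes of which 3 or more markers were detected. A cluster stayed unnamed if over 50% of cells were called doublets, if its 10 leading genes held more markers of another class, or if it had no own leading marker and a median depth under the library's divided by 3. Unnamed clusters (1184 and 1052 cells) entered no class.

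Counts were summed per library and class. Intervals are exact Poisson ones for levels, exact conditional binomial ones for folds and Clopper-Pearson ones for shares. Ratios used for counting add 5 CPM. The free RNA estimate is the share of 4 Leydig genes left in a class times the library-wide profile. The same-mix value averages clusters with 20 or more cells in each library. Named genes were the 5 most abundant members per germ class, the 3 highest and lowest ratios in late spermatocytes, round and elongating spermatids, sex-linked members, the 3 highest and lowest germ over somatic ratios, related pairs, and extremes of the lists; others were named to account for every member. The promoter motifs were chosen after the files had been read. The ratio steps were run on simulated Poisson counts with planted folds. Such counts hold no difference of library, cluster mix or free RNA, so they bear only on counting error. Versions were Python 3.11.15, scikit-learn 1.9.0, pandas 2.3.3, scipy 1.17.1 and, for arrays, numpy 2.4.6. The values of 1 listed gene are not reported here.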

Additional observations from a re-analysis of the deposited data

How the results depend on the processing

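No paired analysis was possible because there is 1 library per genotype. Alternatives were a stricter filter of 500 genes and 10% mitochondrial counts, no called doublets, Leiden resolution 2, trimmed-mean scaling, an added 1 CPM, a minimum of 50 CPM, no minimum, the same cluster mix, and subtraction of free RNA. Use of only clusters led by an own marker was added after the data had been seen. Of 120 counts and medians under alternatives, 106 stayed within 1.5 times the main count or, for medians, within a limit, and 14 did not. That limit was the median half-width of the counting intervals of single members, not an interval of the median itself. The 1 member higher in late spermatocytes (Usp12) became 0 with the minimum of 50 CPM, which it does not reach (its log2 ratio is still 0.66), with the same cluster mix and after free RNA was subtracted. The 2 members lower in elongating spermatids became 1 (Usp8) with trimmed-mean scaling and with the same cluster mix, and 0 after free RNA was subtracted and with the minimum of 50 CPM, which neither reaches (log2 ratios still -1.21 for Usp8 and -0.76 for Usp1). The 0 members higher there became 1 (Usp50) with trimmed-mean scaling and 2 (Usp25 and Usp50) with only clusters led by an own marker. The median log2 ratio there, -0.04, changed sign: it became 0.24 with trimmed-mean scaling, 0.0345 with the minimum of 50 CPM, 0.0309 after free RNA was subtracted and 0.10 with only clusters led by an own marker. The round spermatid median went from -0.06 to 0.03 with trimmed-mean scaling, a change of sign that lay within the limit for medians. With only clusters led by an own marker, 8 members peaked in round spermatids and 2 in elongating ones, against 7 and 3 in the main setting. The 14 members peaking in early spermatocytes became 7 with the minimum of 50 CPM. Fewer members are read at that minimum, and the cause of the other changes was not tested. Values of single members moved beyond counting error in 40 of 180 cases. The 180 include the settings with a minimum of 50 CPM and with no minimum, which cannot change the ratio of a single member. Depth limits members under 10 CPM, and no result has a second library of the same genotype behind it.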
